A study of Mus musculus with 40 samples.

Results

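The 35 genes described here encode the enzymes that make cholesterol, the factors that sense it and the proteins that load it on to lipoproteins, export it, store it or turn it over. They were taken by gene symbol, as 35 of the 24060 rows of a table of RNA counts from mouse striatum, and each of the 35 symbols was found once and passed the filter on low counts in all 11 comparisons described below. Cholesterol does not cross the blood–brain barrier in lipoproteins, so the brain makes its own. In the adult brain, astrocytes are regarded as a main source of cholesterol, which they release on particles that carry apolipoprotein E, and neurons turn over surplus cholesterol to 24S-hydroxycholesterol, an oxysterol that can leave the brain. Transcription of the synthesis genes is driven by the SREBP factors, which SCAP escorts out of the endoplasmic reticulum and INSIG proteins hold back when sterols are plentiful, whereas the LXR receptors sense oxysterols and induce efflux genes.

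The table held 40 libraries in 10 groups of 4. In RiboTag, a virus makes chosen cells produce the ribosomal protein Rpl22 with an HA tag, and RNA on the tagged ribosomes is pulled down with anti-HA beads (IP) and compared with RNA from the whole lysate (input). C57/BL6NTac mice were injected in the dorsal striatum at 6 weeks of age with an AAV in which either the astrocyte promoter gfaABC1D or the neuronal promoter hSyn1 drives Rpl22-HA, which gave astrocyte IP, astrocyte-cohort input, neuron IP and neuron-cohort input. Neither cohort is labelled with a mutation. By the study's methods input RNA came from a part of the same injected lysates. The SAPAP3 cohort (C57/BL6J WT mice and C57/BL6J-Dlgap3 KO mice of the line B6.129-Dlgap3tm1Gfng/J) was injected at 4.5 months and gave input and IP libraries of both genotypes. A further 8 libraries held bulk striatal RNA from WT and SAPAP3 KO mice, both labelled C57/BL6NTac, with no age in the labels. The labels name the hSyn1 vector for the neuron libraries only, so the astrocyte IP was taken as such from the strain and the study's methods, and no cell type is named for the IP of the SAPAP3 cohort.

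Total counts per library ranged from 23438112 to 84109800. The labelled cell types were checked against lists of 10 markers each. All 10 astrocyte markers were enriched at least 2-fold in astrocyte IP (median log2 fold change 2.97), in SAPAP3 cohort WT IP (2.30) and in SAPAP3 cohort KO IP (2.39), and none was enriched in neuron IP, in which 2 were depleted (median −0.63). In neuron IP 3 of 10 neuronal markers were enriched (median 0.80). All 10 microglial markers were depleted in each IP, all 10 oligodendrocyte markers were depleted in neuron IP and 4 to 5 of them were enriched in the IP of the SAPAP3 cohort, and all 5 ependymal markers were enriched in astrocyte IP and in both IP groups of the SAPAP3 cohort. No marker was at 0 in any group. All 8 astrocyte-cohort libraries had Y-linked RNA and little or no Xist, and all 8 neuron-cohort libraries had Xist and no Y-linked RNA, so that a difference between them by cell type cannot be told apart from one by cohort or by sex. Gapdh, which has many processed copies, was between 556 and 1113 CPM (counts relative to library size) in the astrocyte cohort and between 2.08 and 5.46 CPM elsewhere. Whether reads shared between copies were counted in the same way in all cohorts was not tested. Of the 35 genes, Acat2, Idi1, Fdps, Fdft1, Insig1 and Tm7sf2 have a near-identical copy or a shared exon elsewhere, and their levels are uncertain for this reason in comparisons between cohorts. The search for copies took matches of at least 95% identity over at least 50% of the transcript.

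Of the 35 genes, 18 were at least 2-fold higher in astrocyte IP than in input at an adjusted p under 0.05 (edgeR quasi-likelihood test, Benjamini–Hochberg adjustment over 15476 genes), and none was 2-fold lower. Over all genes tested, 13.4% were called higher and 13.5% lower. The median log2 fold change was 1.12 for the 35 genes, 1.15 for the 18 synthesis enzymes and −0.03 for all genes tested. A further 13 genes were higher by less than 2-fold at an adjusted p under 0.05, Abcg1 and Cyp46a1 were lower by less than 2-fold, and Insig2 and Nr1h2 did not pass the test. Without a limit on the fold, 31 genes were thus higher and 2 lower, where 39.2% and 41.2% of all genes were. In either direction 80.4% of all genes passed, and the share whose IP and input libraries lay apart was not counted. Whether groups overlapped is therefore given below only as a description of single genes. Levels below are in FPKM, here CPM after TMM scaling over the 40 libraries, divided by the merged exon length in kilobases, and the 4 values of a group are given in replicate order. The merged length takes in all annotated exons of a gene, for example 10331 bases for Fdft1 and 3349 bases for Apoe. Sums and ranks of levels between genes thus depend on the annotation.

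Of the 7 enzymes of the mevalonate steps, which build the isoprenoid precursors from acetyl-CoA, all were higher in IP and 3 passed 2-fold. Hmgcs1, the cytosolic HMG-CoA synthase at the entry to the pathway, stood at 36.9, 39.1, 41.7 and 40.2 FPKM in input and 126, 152, 143 and 158 FPKM in IP. The ranges did not overlap, and the log2 fold change was 1.80 ± 0.066 (SE), with an adjusted p of 4.46e-10. Idi1, the isomerase that makes the second building block of isoprenoids, was scarce at 1.66, 1.33, 1.62 and 1.42 FPKM in input and reached 4.94, 5.61, 6.14 and 5.70 FPKM in IP (log2 fold change 1.82 ± 0.093, adjusted p = 7.8e-09). Mvd, which decarboxylates mevalonate diphosphate, went from 6.74, 7.29, 6.37 and 7.84 FPKM to 16.9, 20.4, 19.4 and 21.2 FPKM (log2 fold change 1.39 ± 0.083, adjusted p = 2.72e-08). Every IP library lay above every input library for these 3 genes. Mvd overlaps a lncRNA of the opposite strand over 34.4% of its exons, and Idi1 has copies in 2 other genes and at 4 further places in the genome. Mvk and Pmvk, the mevalonate kinases, and Acat2 and Fdps, at the 2 ends of this stretch, were higher by less than 2-fold, with log2 fold changes between 0.62 (Acat2) and 0.95 (Mvk).

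The enzymes that join farnesyl units to squalene and close the first ring system rose together. Sqle, squalene epoxidase, read 12.2, 13.6, 13.7 and 13.8 FPKM in input and 31.0, 37.8, 35.1 and 38.6 FPKM in IP (log2 fold change 1.34 ± 0.067, adjusted p = 6.4e-09). Fdft1, squalene synthase, read 7.26, 7.11, 6.63 and 6.62 FPKM and 14.8, 17.2, 15.0 and 16.4 FPKM (log2 fold change 1.12 ± 0.053, adjusted p = 3.7e-09). Neither gene's groups overlapped. Lss, which cyclises squalene epoxide to lanosterol, was also higher but just below 2-fold (log2 fold change 0.96 ± 0.037, adjusted p = 6.29e-10), with input at 4.27, 4.16, 4.20 and 4.23 FPKM and IP at 8.22, 9.02, 8.74 and 8.61 FPKM.

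After lanosterol, 5 of 8 enzymes passed 2-fold. Cyp51, the lanosterol demethylase, stood at 11.02, 11.6, 11.9 and 11.9 FPKM in input and 30.7, 36.0, 34.5 and 38.3 FPKM in IP (log2 fold change 1.51 ± 0.061, adjusted p = 9.33e-10). Msmo1, the methylsterol monooxygenase, was the most abundant of them, at 34.9, 36.5, 40.7 and 36.3 FPKM in input and 97.4, 117, 113 and 118 FPKM in IP (log2 fold change 1.51 ± 0.064, adjusted p = 1.59e-09). Nsdhl, which acts with Msmo1 in removing the methyl groups at carbon 4, went from 5.07, 5.48, 5.13 and 4.82 FPKM to 13.9, 15.9, 14.4 and 15.5 FPKM (log2 fold change 1.46 ± 0.061, adjusted p = 1.23e-09). All IP libraries exceeded all input libraries for each of these 3 enzymes. Sc5d, the lathosterol desaturase, read 8.02, 8.30, 7.80 and 7.84 FPKM in input and 20.6, 22.9, 22.7 and 22.8 FPKM in IP (log2 fold change 1.40 ± 0.041, adjusted p = 8.28e-11), and Dhcr7, the last enzyme of one of the routes to cholesterol, read 3.73, 4.30, 4.32 and 3.87 FPKM and 8.88, 10.54, 9.69 and 9.58 FPKM (log2 fold change 1.18 ± 0.066, adjusted p = 1.58e-08). Tm7sf2, a sterol reductase, rose from 5.77, 6.45, 4.55 and 5.51 FPKM to 9.04, 11.1, 8.58 and 10.3 FPKM (log2 fold change 0.73 ± 0.11, adjusted p = 9.42e-05). The smallest differences were those of Hsd17b7 (log2 fold change 0.46 ± 0.058, adjusted p = 1.86e-05) and Ebp, the sterol isomerase (log2 fold change 0.18 ± 0.060, adjusted p = 0.0175), so the enrichment was not the same along the pathway.

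Among the sensing genes, 1 partner of each pair had the larger fold change. Srebf1, which encodes the SREBP-1 factors, read 14.3, 14.3, 15.8 and 14.4 FPKM in input and 69.6, 63.2, 69.9 and 62.9 FPKM in IP (log2 fold change 2.10 ± 0.051, adjusted p = 1.99e-11), whereas Srebf2, which encodes SREBP-2, had a smaller difference (log2 fold change 0.80 ± 0.050, adjusted p = 4.13e-08). Insig1 stood at 25.0, 26.4, 27.3 and 27.3 FPKM and 57.9, 68.8, 65.6 and 70.3 FPKM (log2 fold change 1.23 ± 0.057, adjusted p = 3.43e-09), whereas Insig2 did not pass the test (log2 fold change 0.02 ± 0.049, adjusted p = 0.752). Both Srebf1 and Insig1 separated IP from input without overlap. Nr1h3, which encodes LXRα, read 1.52, 1.24, 1.29 and 0.977 FPKM in input and 2.14, 2.74, 2.70 and 2.49 FPKM in IP (log2 fold change 0.92 ± 0.14, adjusted p = 6.72e-05), and Nr1h2, which encodes LXRβ, did not pass the test (log2 fold change −0.04 ± 0.052, adjusted p = 0.528). Scap was higher by less than 2-fold (log2 fold change 0.36 ± 0.029, adjusted p = 4.67e-07). The differences between partners were not tested.

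Of the 5 lipoprotein and efflux genes, 4 had the largest fold changes of the 35 genes in astrocyte IP. Apoe, the main apolipoprotein of the brain, read 344, 352.5, 361 and 338 FPKM in input and 2298, 2301, 2259 and 2046 FPKM in IP (log2 fold change 2.60 ± 0.049, adjusted p = 4.02e-12). Clu, which encodes the lipoprotein component clusterin, read 269, 269, 276 and 266 FPKM and 1843, 1811, 1911 and 1670 FPKM (log2 fold change 2.67 ± 0.047, adjusted p = 2.78e-12). Together these 2 genes summed to 619 ± 13.7 FPKM (SD, n = 4) in input and 4034 ± 214 FPKM in IP, against 212 ± 5.97 FPKM and 549 ± 43.1 FPKM for the 18 synthesis enzymes. Abca1, the transporter that lipidates apolipoproteins, stood at 8.51, 7.42, 8.36 and 7.93 FPKM in input and 42.5, 40.0, 44.4 and 43.8 FPKM in IP (log2 fold change 2.33 ± 0.052, adjusted p = 1.15e-11). Lcat, which esterifies cholesterol on lipoproteins, stood at 6.61, 8.09, 7.47 and 7.56 FPKM and 40.3, 44.5, 39.7 and 40.8 FPKM (log2 fold change 2.40 ± 0.062, adjusted p = 3.31e-11). For these 4 genes every IP library was above every input library. Abcg1, the second cholesterol transporter of the group, went the other way, at 28.1, 27.5, 27.8 and 26.8 FPKM in input and 26.0, 23.2, 24.8 and 24.1 FPKM in IP (log2 fold change −0.24 ± 0.041, adjusted p = 0.000207), although it read 0.96 when libraries were scaled to ribosomal protein genes, a scaling that moved the median of all genes to 1.18.

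Of the genes of storage, transport and turnover, Soat1, which stores cholesterol as esters, read 8.32, 7.36, 8.23 and 7.21 FPKM in input and 27.1, 27.9, 29.3 and 26.6 FPKM in IP (log2 fold change 1.76 ± 0.052, adjusted p = 8.96e-11). Npc1, which moves cholesterol out of lysosomes, read 16.9, 17.5, 18.5 and 17.9 FPKM and 49.2, 48.4, 54.8 and 47.5 FPKM (log2 fold change 1.42 ± 0.049, adjusted p = 2.92e-10), and its soluble partner Npc2 read 23.02, 22.02, 22.6 and 26.3 FPKM and 38.5, 40.3, 41.4 and 40.5 FPKM (log2 fold change 0.70 ± 0.054, adjusted p = 2.67e-07). All 3 separated IP from input. Stard4, a sterol carrier, was higher by less than 2-fold (log2 fold change 0.65 ± 0.098, adjusted p = 7.78e-05). Cyp46a1, the cholesterol 24-hydroxylase that makes 24S-hydroxycholesterol and is known from neurons, was lower, at 89.5, 90.8, 87.3 and 80.0 FPKM in input and 54.6, 53.1, 52.3 and 49.1 FPKM in IP (log2 fold change −0.81 ± 0.047, adjusted p = 2.32e-08), without overlap of the groups, and under the scaling to ribosomal protein genes it read 0.39, which was 0.79 below the median of all genes.

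**Figure D1:**
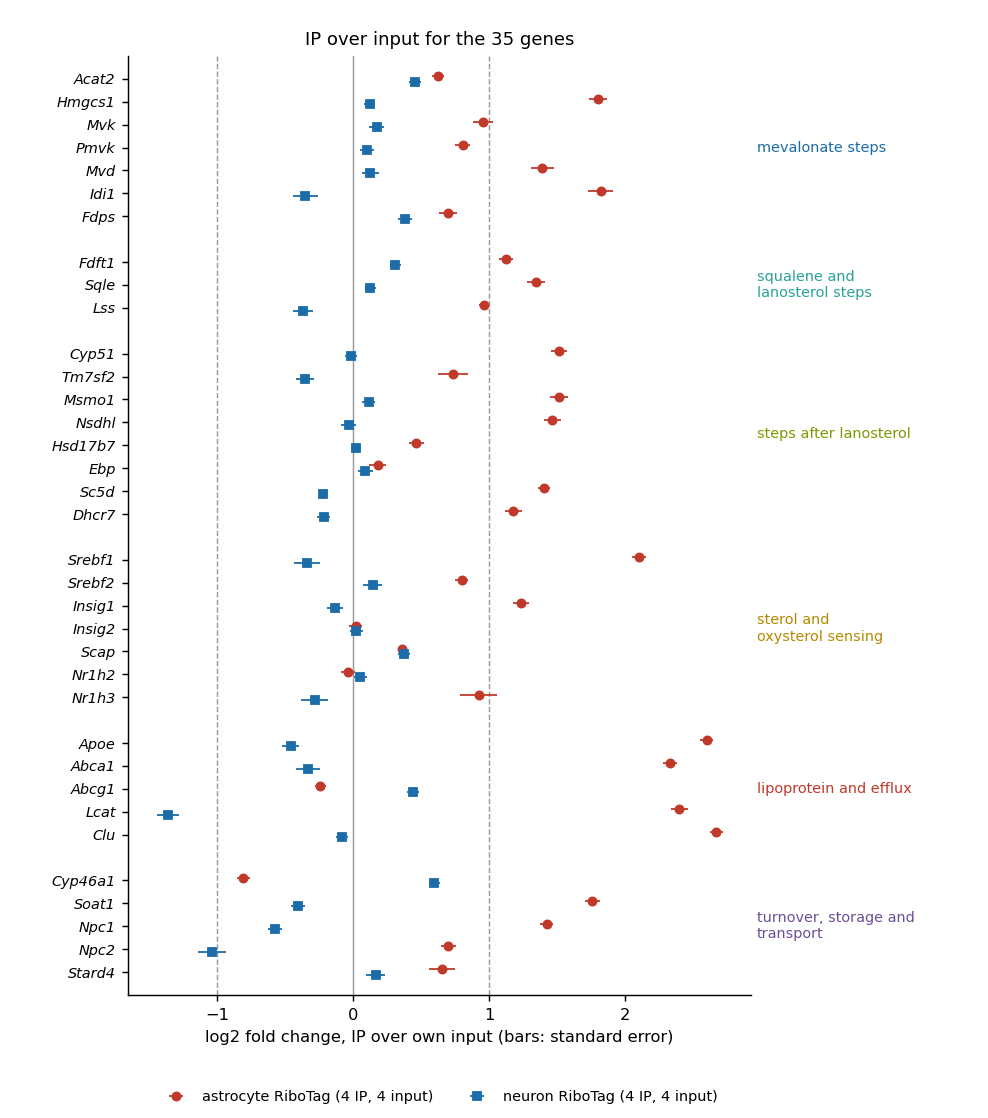
Log2 fold change of IP over own input (horizontal axis) for the 35 genes (rows, by role), with standard errors as bars, in the astrocyte cohort (red circles) and the neuron cohort (blue squares), each from 4 IP and 4 input libraries. Dashed lines mark 2-fold: 18 genes lay above it in astrocyte IP and none in neuron IP, where Lcat and Npc2 lay below the lower line.

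SREBP factors are known to bind sterol regulatory elements together with the general factors NF-Y (at CCAAT boxes) and Sp1 (at GC boxes), so the 5′ ends of the genes were searched for the letters of these 3 elements. RefSeq windows (GRCm38.p6) from 250 bases before to 50 bases after the start were held for 28 of the 35 genes. CCAAT, read on both strands, was found in 22 of the 28 genes (78.6%) and in 41.1% of 27025 gene symbols with a window. GGGCGG was found in 23 of the 28 genes (82.1%) and in 38.2% of symbols, and TCACNCCAC, a core of the sterol regulatory element, in 1 of the 28 (Hmgcs1) and in 1.44% of symbols. No CCAAT match overlapped a GGGCGG match in these genes. By kind, CCAAT was in 14 of the 15 synthesis enzymes with a window and in 8 of the 13 other genes, and GGGCGG in 14 of 15 and 9 of 13. These matches are letters in a window and no binding was measured. The symbols compared were not limited to genes that passed the filter on low counts, as all 35 genes did. The shares are thus not matched for expression, and whether the excess is particular to these genes was not tested. The 250 bases before the start are given here, 5′ to 3′ on the strand of the gene, for the 3 mevalonate enzymes that passed 2-fold in astrocyte IP, for Msmo1, the most abundant enzyme after lanosterol, and for Abca1, an LXR target that was enriched too but has no CCAAT box here. They were chosen with the matches known and are examples. Capitals mark CCAAT (or ATTGG, its reverse complement) and, in Hmgcs1, the TCACNCCAC match. The windows are Hmgcs1 at chr13:119690101-119690350 (plus strand), Idi1 at chr13:8885356-8885605 (plus), Mvd at chr8:122443423-122443672 (minus), Msmo1 at chr8:64733579-64733828 (minus) and Abca1 at chr4:53159896-53160145 (minus).
Hmgcs1: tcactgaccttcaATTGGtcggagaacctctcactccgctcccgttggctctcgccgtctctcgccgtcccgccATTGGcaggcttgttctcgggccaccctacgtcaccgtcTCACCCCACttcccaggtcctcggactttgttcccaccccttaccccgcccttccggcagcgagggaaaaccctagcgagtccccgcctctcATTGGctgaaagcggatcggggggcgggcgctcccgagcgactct
Idi1: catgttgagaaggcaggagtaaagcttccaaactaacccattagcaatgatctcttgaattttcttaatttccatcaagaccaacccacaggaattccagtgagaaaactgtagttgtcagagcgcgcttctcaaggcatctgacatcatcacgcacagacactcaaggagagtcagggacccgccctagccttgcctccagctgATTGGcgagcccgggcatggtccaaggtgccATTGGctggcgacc
Mvd: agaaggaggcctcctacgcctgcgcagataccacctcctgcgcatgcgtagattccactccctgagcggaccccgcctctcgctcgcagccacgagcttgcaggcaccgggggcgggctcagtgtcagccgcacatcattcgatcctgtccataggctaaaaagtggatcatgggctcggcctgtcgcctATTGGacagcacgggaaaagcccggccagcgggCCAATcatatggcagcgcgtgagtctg
Msmo1: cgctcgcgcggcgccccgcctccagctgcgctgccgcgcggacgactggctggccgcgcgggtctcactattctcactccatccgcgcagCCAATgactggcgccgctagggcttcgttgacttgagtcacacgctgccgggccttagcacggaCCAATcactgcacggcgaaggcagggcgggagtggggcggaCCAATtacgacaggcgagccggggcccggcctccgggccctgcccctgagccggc
Abca1: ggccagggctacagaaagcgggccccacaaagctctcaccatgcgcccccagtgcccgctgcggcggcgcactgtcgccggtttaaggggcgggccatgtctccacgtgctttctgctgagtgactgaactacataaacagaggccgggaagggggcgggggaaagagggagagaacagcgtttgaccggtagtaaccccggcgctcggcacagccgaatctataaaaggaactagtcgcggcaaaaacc

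CCAAT, on either strand, occurred 3 times in the Hmgcs1 and Msmo1 sequences and 2 times in those of Idi1 and Mvd, and GGGCGG occurred 2 times in those of Hmgcs1, Msmo1 and Abca1. Idi1 and Mvd each had 1 GGGCGG match. In Hmgcs1, 2 of the CCAAT boxes lay before the TCACNCCAC match and 1 after it. Of the other enzymes after lanosterol with a larger fold change than Mvd, CCAAT occurred 4 times in the whole 300-base window of Nsdhl, and once each in those of Cyp51 and Sc5d.

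In neuron IP the synthesis enzymes stayed near their input level. None of the 35 genes was called higher, where 0.42% of 16198 genes were, and 2 were called lower, where 15.8% of genes were (edgeR, adjusted p under 0.05 and 2-fold). The median log2 fold change was 0.02 for the 35 genes, 0.09 for the synthesis enzymes and 0.00 for all genes. Without a limit on the fold, 9 genes (25.7%) were higher and 13 (37.1%) lower at an adjusted p under 0.05, where 35.5% and 35.9% of all genes were. The other 13 did not pass. The members' shares were therefore below or near the background, and the values of single genes that follow are a description.

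Both genes called lower belong to the export and transport groups. Lcat stood at 8.86, 7.45, 8.73 and 8.67 FPKM in input and 3.52, 3.16, 3.69 and 3.16 FPKM in IP, with no overlap (log2 fold change −1.36 ± 0.083, adjusted p = 4.97e-07). Npc2 stood at 24.3, 22.99, 17.4 and 22.2 FPKM in input and 11.2, 11.7, 9.48 and 11.4 FPKM in IP, also apart (log2 fold change −1.04 ± 0.10, adjusted p = 9.65e-06). The Npc2 call rests on 2 libraries, since the log2 fold change was −0.98 without neuron input replicate 1 and −0.96 without neuron IP replicate 3, both short of 2-fold. Over the 10 astrocyte markers the summed level was 5518 to 5859 CPM in neuron-cohort input and 3742 to 4123 CPM in neuron IP, and its part in the lower Lcat and Npc2 was not tested.

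Besides these, 11 genes that were higher in astrocyte IP were lower in neuron IP by less than 2-fold. Among the enzymes, Idi1 read 1.32, 1.43, 1.44 and 1.36 FPKM in input and 1.13, 1.24, 1.00 and 1.11 FPKM in IP (log2 fold change −0.35 ± 0.092, adjusted p = 0.00588), and Lss read 4.83, 4.89, 4.63 and 4.39 FPKM and 3.58, 4.31, 3.53 and 3.57 FPKM (log2 fold change −0.37 ± 0.070, adjusted p = 0.000822). Tm7sf2 read 7.07, 7.62, 7.00 and 6.36 FPKM in input and 5.62, 5.63, 5.49 and 5.93 FPKM in IP (log2 fold change −0.36 ± 0.068, adjusted p = 0.000863). In these 3 genes the groups lay apart. Sc5d went from 11.5, 11.7, 11.2 and 11.6 FPKM to 10.2, 10.4, 10.1 and 10.1 FPKM (log2 fold change −0.22 ± 0.033, adjusted p = 0.000158) and Dhcr7 from 5.96, 5.80, 6.04 and 5.64 FPKM to 5.17, 5.17, 5.51 and 4.99 FPKM (log2 fold change −0.22 ± 0.048, adjusted p = 0.00217), both apart as well. Of the sensing genes, Srebf1 stood at 12.7, 14.1, 10.4 and 11.7 FPKM in input and 9.93, 11.1, 8.73 and 10.1 FPKM in IP, and Nr1h3 at 1.72, 1.41, 1.37 and 1.49 FPKM and 1.33, 1.19, 1.29 and 1.28 FPKM. The Srebf1 groups overlapped, the highest IP library being above the lowest input library (log2 fold change −0.34 ± 0.096, adjusted p = 0.0086), while those of Nr1h3 did not (log2 fold change −0.28 ± 0.0998, adjusted p = 0.0269). With libraries scaled to ribosomal protein genes, which moved the median of all genes to 0.46, Idi1, Lss, Tm7sf2, Sc5d, Dhcr7, Srebf1 and Nr1h3 read between 0.09 (Lss) and 0.24 (Dhcr7), so that the direction of all 7 turned.

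Of the lipoprotein genes, Apoe read 376, 376, 332 and 355.6 FPKM in neuron-cohort input and 264, 287, 248.8 and 282 FPKM in IP (log2 fold change −0.46 ± 0.060, adjusted p = 6.32e-05), and Abca1 read 11.1, 11.5, 9.68 and 11.9 FPKM and 9.46, 8.79, 7.66 and 10.3 FPKM (log2 fold change −0.33 ± 0.089, adjusted p = 0.00692). Apoe separated the groups and Abca1 did not. Clu did not pass the test, at 311, 310, 288 and 301 FPKM and 296, 308, 280 and 296 FPKM (log2 fold change −0.08 ± 0.044, adjusted p = 0.123). Soat1 fell from 8.93, 8.91, 9.39 and 9.99 FPKM to 7.25, 6.91, 7.13 and 7.75 FPKM (log2 fold change −0.41 ± 0.050, adjusted p = 4.28e-05) and Npc1 from 20.3, 20.9, 18.5 and 19.5 FPKM to 14.3, 14.3, 13.4 and 12.9 FPKM (log2 fold change −0.58 ± 0.051, adjusted p = 4.67e-06), each without overlap. Scaled to ribosomal protein genes, Apoe, Abca1 and Soat1 also turned, to values from 0.001 (Apoe) to 0.13 (Abca1).

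The genes that rose in neuron IP at an adjusted p under 0.05 were Cyp46a1, Acat2, Abcg1, Fdps, Scap, Fdft1, Mvk, Sqle and Hmgcs1. Cyp46a1 rose from 65.2, 69.5, 65.0 and 62.2 FPKM to 99.2, 105, 104 and 101 FPKM (log2 fold change 0.60 ± 0.043, adjusted p = 1.2e-06). Abcg1 rose from 24.5, 24.6, 21.99 and 23.2 FPKM to 31.7, 34.0, 32.9 and 33.4 FPKM (log2 fold change 0.44 ± 0.044, adjusted p = 1e-05). These 2 genes lay apart between the groups and were the 2 that fell in astrocyte IP. The 7 others had log2 fold changes between 0.12 (Hmgcs1 and Sqle) and 0.46 (Acat2), and Hmgcs1 (−0.065), Mvk (−0.014) and Sqle (−0.061) turned when genes were filtered at 5 FPKM. Of the leading enzymes, Hmgcs1 stood in neuron IP at 80.6, 78.2, 74.0 and 74.1 FPKM against 68.0, 69.8, 67.5 and 68.0 FPKM in input. Msmo1 stood at 49.1, 55.1, 49.6 and 50.5 FPKM against 46.0, 47.9, 42.9 and 46.3 FPKM. Summed astrocyte markers were still 3742 to 4123 CPM in neuron IP, so these levels cannot be assigned to neurons alone. The synthesis enzymes summed to 306 ± 6.49 FPKM (SD, n = 4) in neuron IP and 275 ± 7.49 FPKM in its input.

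**Figure D2:**
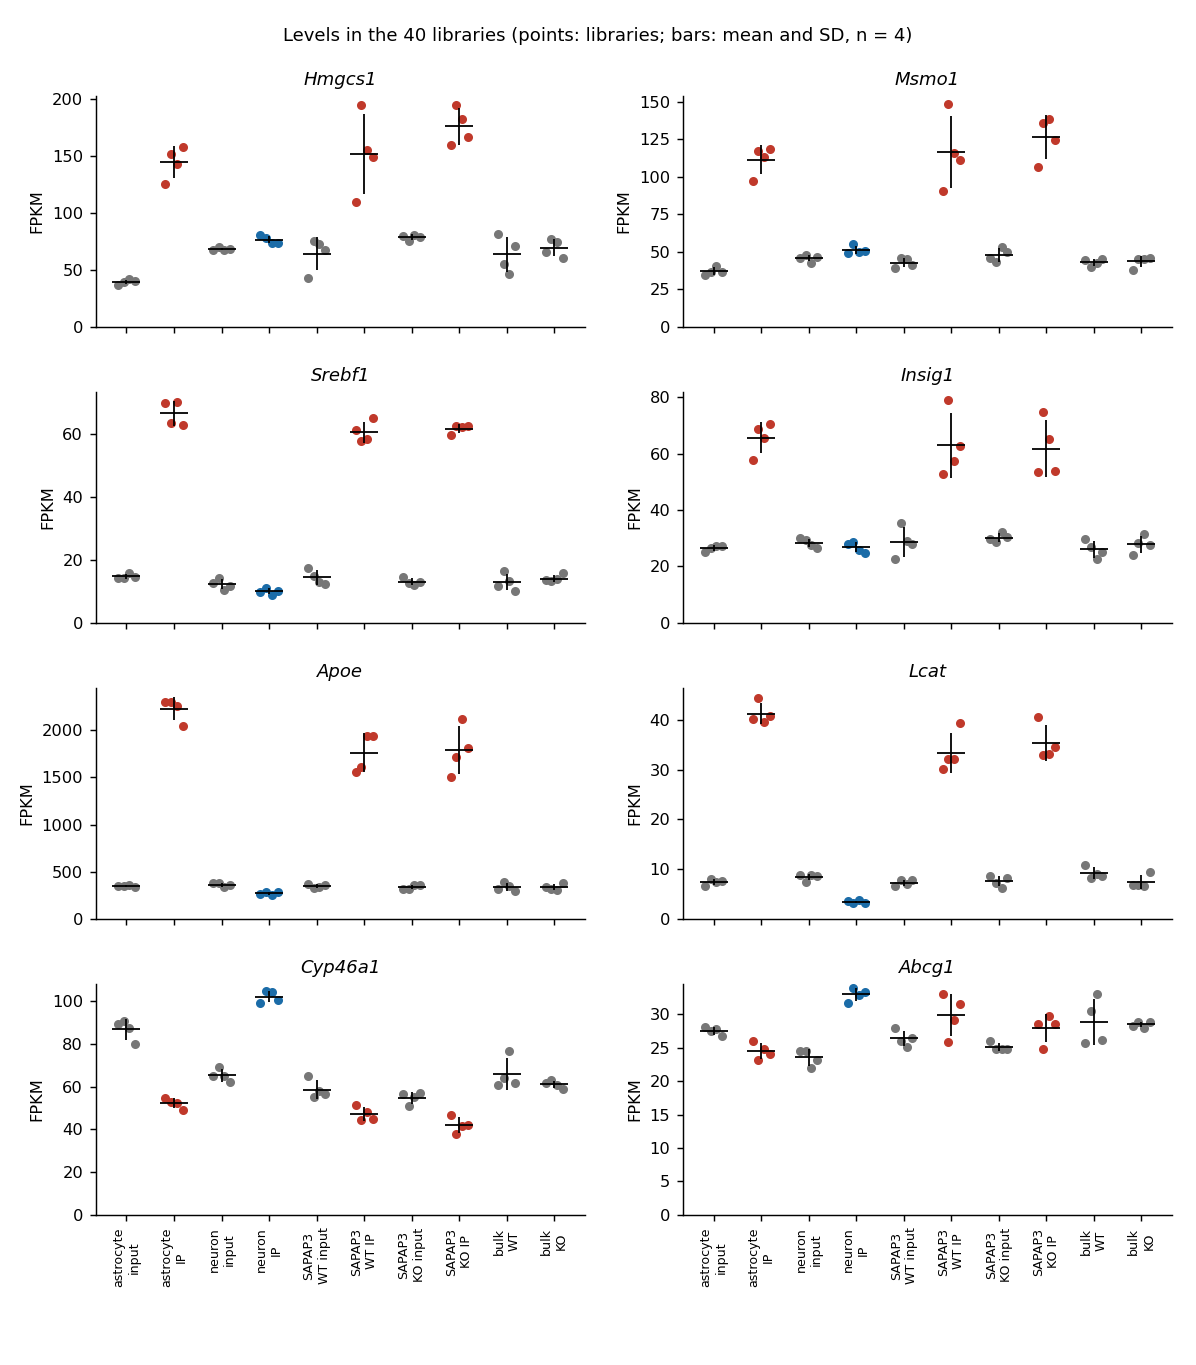
Level in FPKM (linear axis from 0) of 8 of the genes in the 40 libraries, with each point 1 library, the horizontal bar the group mean and the vertical bar the SD (n = 4); grey points are input or bulk RNA, blue points neuron IP and red points the other IP groups. The group means of Apoe were between 335 and 360 FPKM in input and bulk RNA, and Apoe was between 1502 and 2301 FPKM in the 12 red IP libraries, and Cyp46a1 was highest in neuron IP, at 99.2 to 105 FPKM.

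Set side by side, neuron IP held less of most of these transcripts than astrocyte IP. In the direct comparison of the 2 IP groups, 16 of the 35 genes were called lower in neuron IP and none higher, where 19.4% and 8.39% of 15468 genes were (edgeR). The median log2 fold change was −0.94 for the 35 genes and 0.01 for all genes, but with libraries scaled to ribosomal protein genes the split was 6 lower and 8 higher, 20 of the 35 values changed sign and the median of all genes moved to 1.20. Relative to that median, 4 of the 35 genes lay above it under either scaling. Between the 2 inputs the same scaling moved the median of all genes to 1.89. The ribosomal protein genes thus differed in their share of counts between the cohorts in RNA that was not pulled down. Whether their reads were counted alike in both cohorts was not tested. Changes of sign under this scaling cannot be told apart from a shift in the scaling genes. Lcat showed the widest gap (log2 fold change −3.65 ± 0.069, adjusted p = 4.43e-11), followed by Apoe (log2 fold change −3.08 ± 0.068, adjusted p = 1.02e-10) and Srebf1 (log2 fold change −2.77 ± 0.074, adjusted p = 3.39e-10). The other genes called lower were Clu, Idi1, Abca1, Soat1, Npc2, Npc1, Insig1, Lss, Sc5d, Msmo1, Cyp51, Nsdhl and Nr1h3, with log2 fold changes between −2.65 (Clu) and −1.02 (Nr1h3). Cyp46a1 (log2 fold change 0.93 ± 0.043, adjusted p = 1.52e-08) and Abcg1 (log2 fold change 0.39 ± 0.043, adjusted p = 1.23e-05) were higher in neuron IP by less than 2-fold. Hsd17b7, Ebp, Insig2, Nr1h2 and Stard4 did not pass the test.

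Both the levels and their order differed between the 2 IP groups. Apoe and Clu ranked first and second in astrocyte IP, at 2226 and 1809 FPKM, and second and first in neuron IP, at 270 and 295 FPKM, where their ranges overlapped. The third place was held by Hmgcs1 in astrocyte IP (145 FPKM) and by Cyp46a1 in neuron IP (102 FPKM), with Msmo1 in the fourth place in astrocyte IP (112 FPKM), and Hmgcs1 (76.7 FPKM) and Msmo1 (51.1 FPKM) in the fourth and the fifth of neuron IP. Srebf1 (66.4 FPKM) and Insig1 (65.6 FPKM) were next in astrocyte IP, with ranges that overlapped. Further down, Lcat ranked 10 of the 35 in astrocyte IP and 32 in neuron IP, Srebf1 5 and 21, and Abca1 9 and 23, whereas Abcg1 ranked 18 and 7. The part of RNA from other cells in the levels of neuron IP, which still held astrocyte markers, was not tested.

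**Figure D3:**
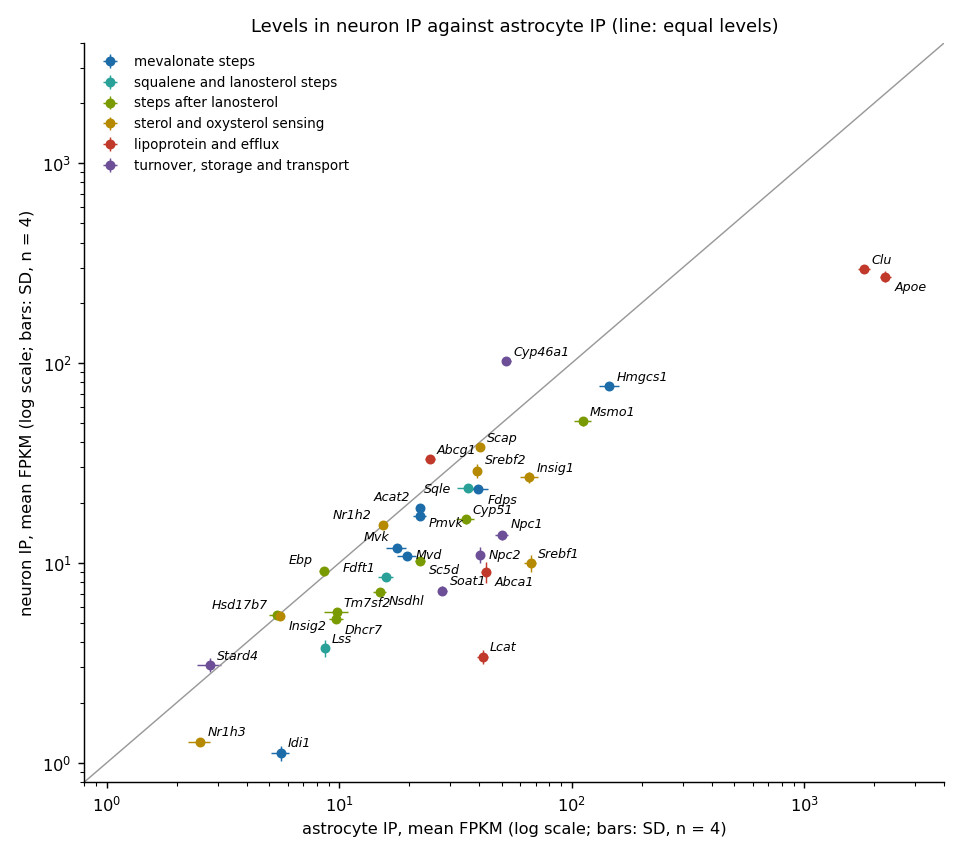
Mean level of the 35 genes in neuron IP (vertical axis) against astrocyte IP (horizontal axis), in FPKM on log axes, with SD bars (n = 4 each), coloured by role; the line marks equal levels. Lcat, Srebf1, Apoe and Clu lay far below the line, and Cyp46a1 and Abcg1 lay above it.

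Since the 2 cohorts' inputs differed, the enrichment of each cohort over its own input was compared in 1 model. Enrichment was lower in neuron than in astrocyte RiboTag for 21 of the 35 genes and higher for 1, where 19.1% and 8.27% of 16371 genes were called (edgeR interaction term, adjusted p under 0.05 and 2-fold). This comparison shares its libraries with those above. Hmgcs1, Mvd, Sqle, Dhcr7 and Tm7sf2 were among the 21 but were not called between the 2 IP groups. Each had a higher mean level in neuron-cohort input than in astrocyte-cohort input. Hmgcs1 stood at −0.95 between the IP groups and −1.68 by the interaction, with input means of 68.3 FPKM (neuron cohort) and 39.5 FPKM (astrocyte cohort). The median difference of log2 fold changes was −1.27 for the 35 genes, −1.24 for the synthesis enzymes and 0.02 for all genes. By the same term all 10 astrocyte markers (median −3.34) and all 10 oligodendrocyte markers (median −1.575) were called lower. So were 7 of 8 oligodendrocyte precursor markers (median −2.47), and 7 of 10 neuronal markers were called higher. The part of each cell type in the values of the 35 genes was not tested. The gene with the higher enrichment in neurons was Cyp46a1 (log2 fold change 1.40 ± 0.064, adjusted p = 3.64e-12), which lay at 0.67 under the scaling to ribosomal protein genes. At the other end were Lcat (log2 fold change −3.76 ± 0.11, adjusted p = 9.36e-15), Apoe (log2 fold change −3.06 ± 0.077, adjusted p = 2.98e-15) and Clu (log2 fold change −2.75 ± 0.062, adjusted p = 1.11e-15). Of the synthesis enzymes, 11 of 18 were among the 21, and Sc5d had the smallest standard error (log2 fold change −1.62 ± 0.050, adjusted p = 2.35e-14). Fdft1, Mvk, Pmvk, Fdps and Hsd17b7 differed by less than 2-fold, as did Acat2, and Ebp did not pass the test (log2 fold change −0.09 ± 0.077, adjusted p = 0.305).

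Between the 2 inputs, none of the 35 genes passed 2-fold in edgeR or in DESeq2, where 4.75% of 15944 genes were called higher and 2.7% lower in neuron-cohort input. At an unadjusted p under 0.05, 26 of the 35 genes (74.3%) differed in edgeR, as did 59% of all genes. Without a limit on the fold, 20 (57.1%) were higher in neuron-cohort input and 4 (11.4%) lower at an adjusted p under 0.05. Over all genes 26.4% were higher and 27.5% lower. The median log2 fold change was 0.16 for the 35 genes, 0.31 for the synthesis enzymes and −0.01 for all genes. The largest difference was that of Hmgcs1 (log2 fold change 0.76 ± 0.041, adjusted p = 4.83e-08), at 36.9, 39.1, 41.7 and 40.2 FPKM in astrocyte-cohort input and 68.0, 69.8, 67.5 and 68.0 FPKM in neuron-cohort input, with no overlap. Summed astrocyte markers were 3331 to 3527 CPM in the first and 5518 to 5859 CPM in the second, and their part in this difference was not tested. Cyp46a1 was lower in neuron-cohort input (log2 fold change −0.44 ± 0.051, adjusted p = 1.95e-05), and scaling to ribosomal protein genes, which moved the median of all genes to 1.89, turned this to 1.45.

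Lists of neighbouring pathways were examined beside the 35 genes. Of the fatty acid synthesis genes under SREBP, 10 of 11 were called higher in astrocyte IP (median log2 fold change 1.80), led by the desaturases Fads2 (log2 fold change 2.46 ± 0.045, adjusted p = 3.43e-12) and Fads1 (log2 fold change 2.21 ± 0.062, adjusted p = 5.41e-11) and by the malic enzyme Me1 (log2 fold change 2.30 ± 0.058, adjusted p = 2.56e-11), and Elovl6 did not pass the test (log2 fold change −0.06 ± 0.039, adjusted p = 0.164). In neuron IP none of the 11 was called higher and 1 was called lower, the desaturase Scd1 (log2 fold change −1.44 ± 0.064, adjusted p = 8.21e-08), with a median of −0.28 and values up to 0.74 (Acly, the ATP citrate lyase). The 3 genes that led in astrocyte IP stood at −0.69 for Fads2, −0.68 for Fads1 and −0.33 for Me1 there. The branch that uses isoprenoids for prenylation, dolichol and ubiquinone had 1 of 12 genes called higher in astrocyte IP, the protease Zmpste24 (log2 fold change 1.14 ± 0.051, adjusted p = 2.51e-09), and a median of −0.29. Of lipoprotein receptors and remodelling genes, 1 of 10 tested was called, the apolipoprotein Apoc1 (log2 fold change 1.30 ± 0.20, adjusted p = 8.23e-05), at a median of −0.07. Of 20 tested genes of oxysterol metabolism and sterol transport, 3 (15%) were called higher and 2 (10%) lower, where 13.4% and 13.5% of all genes were. The shares called higher in the preceding 2 lists were 8.33% and 10%. The largest changes were Ch25h, cholesterol 25-hydroxylase (log2 fold change −2.32 ± 0.64, adjusted p = 0.00607), Hsd3b7, an enzyme of oxysterol and bile acid metabolism (log2 fold change 1.35 ± 0.091, adjusted p = 7.94e-08), and Cyp27a1, sterol 27-hydroxylase (log2 fold change −1.30 ± 0.13, adjusted p = 2.27e-06). Ch25h and Cyp27a1 were also lower than input in neuron IP (log2 fold change −2.59 ± 0.39, adjusted p = 0.000176, and log2 fold change −2.21 ± 0.16, adjusted p = 1.33e-06). Microglial markers fell in both IP groups too (10 of 10 each), and their part in the Ch25h and Cyp27a1 values was not tested.

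The older SAPAP3 cohort held mice other than those of the astrocyte cohort, and its IP was compared with input of the same animals. No cell type is named for this IP. The oligodendrocyte markers had a median log2 fold change of 0.85 in its WT IP and 0.93 in its KO IP, against 0.02 in astrocyte IP. Their part in the values below was not tested. In WT mice 16 of the 35 genes were called higher in IP than in input and none lower, where 10.9% of 15587 genes were called higher and 12.1% lower. In KO mice 15 were higher and none lower, where 12.3% of 15583 genes were called higher and 11.5% lower. The medians of the 35 genes were 0.86 in WT and 0.95 in KO, and those of all genes −0.03 and 0.00. All 16 genes called in WT were among the 18 of astrocyte IP (88.9% of the 18), and of the 15 called in KO 14 were (93.3% of the 15 and 77.8% of the 18), the other being Lss. The same overlap over all genes called was not counted, so whether it is particular to these genes was not tested. All 10 astrocyte markers were called higher in each of these IP groups too. The WT count rested partly on single libraries: it was 12 without WT input replicate 1 and 11 without WT IP replicate 2, when Idi1, Sqle, Nsdhl and Sc5d (and, in the latter case, Insig1) were below 2-fold.

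Clu stood at 270, 283, 295 and 324 FPKM in WT input and 1319, 1614, 1765 and 1942 FPKM in WT IP (log2 fold change 2.46 ± 0.12, adjusted p = 4.05e-07). Srebf1 stood at 17.4, 14.9, 12.8 and 12.5 FPKM and 61.0, 57.7, 58.2 and 65.0 FPKM (log2 fold change 2.03 ± 0.12, adjusted p = 8.53e-07). Msmo1 stood at 39.3, 46.0, 45.0 and 41.1 FPKM and 90.4, 148, 116 and 111 FPKM (log2 fold change 1.40 ± 0.13, adjusted p = 1.22e-05). IP exceeded input in every library for these 3 genes, and Msmo1 in IP ranged more widely than in astrocyte IP. In KO mice, Clu (log2 fold change 2.61 ± 0.11, adjusted p = 2.41e-08), Srebf1 (log2 fold change 2.25 ± 0.067, adjusted p = 6.05e-09) and Msmo1 (log2 fold change 1.40 ± 0.094, adjusted p = 3.38e-07) had similar values. Cyp46a1 was again lower in IP, by less than 2-fold, in WT (log2 fold change −0.35 ± 0.083, adjusted p = 0.0039) and KO (log2 fold change −0.38 ± 0.072, adjusted p = 0.000645), although scaling to ribosomal protein genes turned these to 0.40 and 0.25. Abcg1 did not pass the test in WT (log2 fold change 0.14 ± 0.086, adjusted p = 0.189) or KO (log2 fold change 0.15 ± 0.065, adjusted p = 0.0502). Stard4, higher in astrocyte IP, also did not pass here (log2 fold change −0.03 ± 0.13, adjusted p = 0.869 in WT, and log2 fold change −0.12 ± 0.099, adjusted p = 0.277 in KO). Of the fatty acid synthesis list, 9 of 11 were called higher in each genotype.

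**Figure D4:**
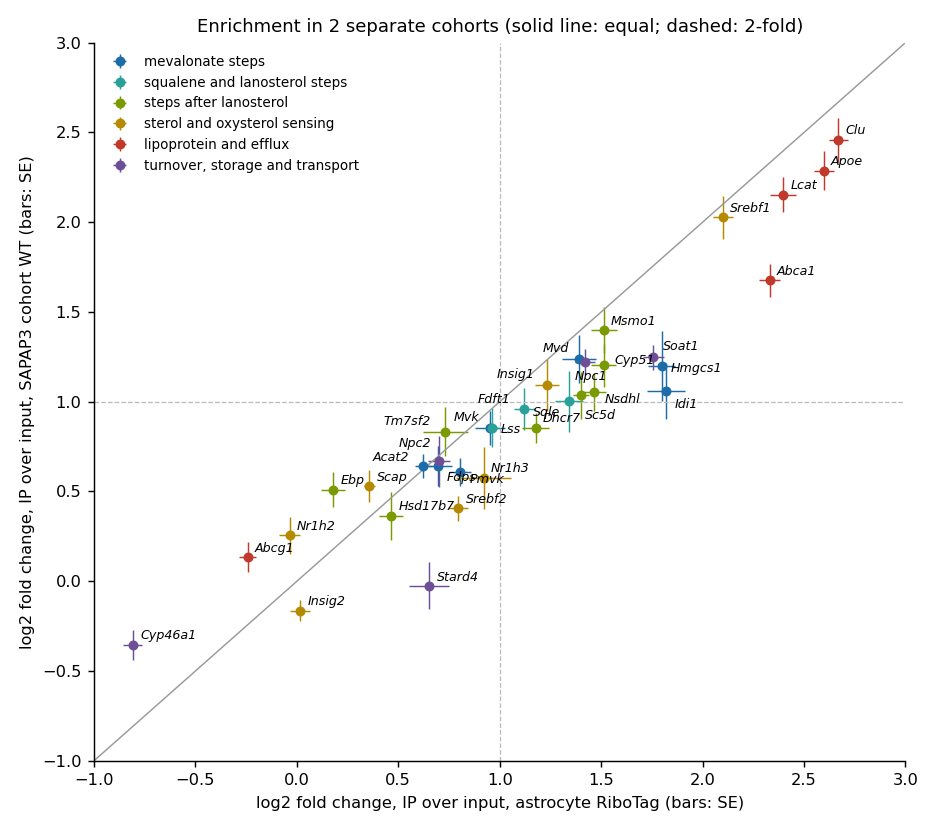
Log2 fold change of IP over input for the 35 genes in WT mice of the SAPAP3 cohort (vertical axis) against the astrocyte RiboTag cohort (horizontal axis), with standard errors, coloured by role; the solid line marks equal values and the dashed lines 2-fold. The 16 genes called in both lay in the upper right, with Clu and Apoe at the far end, and Cyp46a1 lay below 0 on both axes.

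SAPAP3, encoded by Dlgap3, is a postsynaptic scaffold whose loss in mice gives compulsive grooming, and the genotype comparisons ask whether RNA of these genes differs without it. Dlgap3 itself was 392.4 ± 47.8 CPM (SD, n = 4) in WT input and 172 ± 16.6 CPM in KO input (log2 fold change −1.19, adjusted p = 0.00698 in edgeR). In IP it was 190 ± 26.3 CPM in WT and 72.1 ± 17.8 CPM in KO (log2 fold change −1.40, adjusted p = 0.0283). In bulk striatum it was 327 ± 67.7 CPM and 148 ± 9.07 CPM (log2 fold change −1.14, adjusted p = 0.318). The 2 genotypes did not overlap in any of the 3, and reads from the targeted gene remained in the KO libraries.

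No cholesterol gene passed the test for genotype. In input none of the 35 was called by edgeR, DESeq2 or limma-voom at an adjusted p under 0.05, where edgeR called 0.00641% of 15591 genes (1 gene). In IP none was, where edgeR called 0.0263% of 15198 genes, and in bulk striatum and in the comparison of the genotype effect between IP and input none was, where 0% of 16020 and 0% of 16059 genes were. In bulk striatum Dlgap3 itself did not pass, so the lack of calls there cannot show that the 35 genes were unchanged. At an unadjusted p under 0.05 there were 2 of the 35 genes in input (5.57% of all genes), 1 in IP (2.63%), 0 in bulk (4.94%) and 0 in the comparison of effects (1.26%).

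The smallest p in input was that of Stard4, with WT at 2.04, 3.04, 2.98 and 2.73 FPKM and KO at 3.67, 3.63, 3.37 and 3.33 FPKM (log2 fold change 0.37, 95% interval 0.12 to 0.62, adjusted p = 0.735). Srebf2 read 24.8, 29.3, 26.6 and 28.04 FPKM in WT and 33.8, 33.4, 27.9 and 28.7 FPKM in KO (log2 fold change 0.19 ± 0.079, adjusted p = 0.735), and Fdft1 read 5.09, 6.96, 6.49 and 6.403 FPKM and 6.89, 6.41, 7.89 and 7.82 FPKM (log2 fold change 0.22 ± 0.098, adjusted p = 0.735). The genotypes lay apart for Stard4 and overlapped for Srebf2 and Fdft1. In IP the smallest p was that of Lss, at 6.64, 8.55, 7.47 and 7.63 FPKM in WT and 8.31, 8.98, 9.19 and 8.29 FPKM in KO (log2 fold change 0.20, 95% interval 0.02 to 0.37, adjusted p = 0.999). Idi1 (log2 fold change 0.27 ± 0.13, adjusted p = 0.999) and Cyp46a1 (log2 fold change −0.17 ± 0.084, adjusted p = 0.999) followed. In bulk striatum, Lcat read 10.9, 8.16, 8.95 and 8.58 FPKM in WT and 6.88, 6.78, 6.69 and 9.50 FPKM in KO (log2 fold change −0.29 ± 0.14, adjusted p = 0.984), and Insig2 (log2 fold change −0.12 ± 0.063, adjusted p = 0.984) and Fdft1 (log2 fold change 0.11 ± 0.075, adjusted p = 0.984) followed. The Lcat groups overlapped through KO replicate 4. In the comparison of effects, Abca1 (log2 fold change 0.20 ± 0.13, adjusted p = 1), Nr1h3 (log2 fold change 0.32 ± 0.22, adjusted p = 1) and Lss (log2 fold change 0.19 ± 0.14, adjusted p = 1) had the smallest p values. In tissue lysate, fewer cells of a type and less RNA per cell cannot be told apart.

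Taken by sign alone, all 18 synthesis enzymes were above 0 in KO over WT input, with a median log2 fold change of 0.12, against 49.5% of all genes above 0. In IP 16 of 18 were above 0 (median 0.14; 52.6% of all genes), and in bulk striatum 13 of 18 (median 0.06; 50.5% of all genes). All 10 astrocyte markers were above 0 in IP too (median 0.13), and their medians were 0.01 in input and −0.02 in bulk striatum. The 10 neuronal markers had medians of −0.19 in IP, −0.25 in input and −0.12 in bulk striatum. The part of such marker shifts in the values of the enzymes was not tested. The enzymes share libraries, and their summed level was lowest in WT input replicate 1, at 199 FPKM. The other WT inputs reached 268 FPKM and the KO inputs ran from 255 to 290 FPKM. Hmgcs1 was 42.6, 75.1, 72.5 and 67.5 FPKM in WT input and 79.8, 75.3, 81.1 and 79.0 FPKM in KO input, so that WT replicate 1 stood far below and the highest WT and lowest KO values nearly met. Without that library, 15 of 18 enzymes were above 0 in input, with a median of 0.08. Without WT IP replicate 1, of the same mouse, 13 of 18 were above 0 in IP (median 0.07). In this cohort 1 mouse of each genotype had Xist and no Y-linked RNA, and without both mice 17 of 18 enzymes were above 0 in input (median 0.15) and 17 in IP (median 0.19). In bulk striatum the count ran from 10 to 16 when single libraries were left out. WT replicate 3 there had Xist RNA, at 10787 counts, and little Y-linked RNA, whereas the 4 KO libraries had at most 2 counts of Xist. Without it 11 of 18 were above 0 (median 0.007), and with the level of Xist as a covariate 10 of 18 were (median 0.004). Without the 2 libraries of opposite genotype that carry 1 animal label it was 17 (median 0.14).

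**Figure D5:**
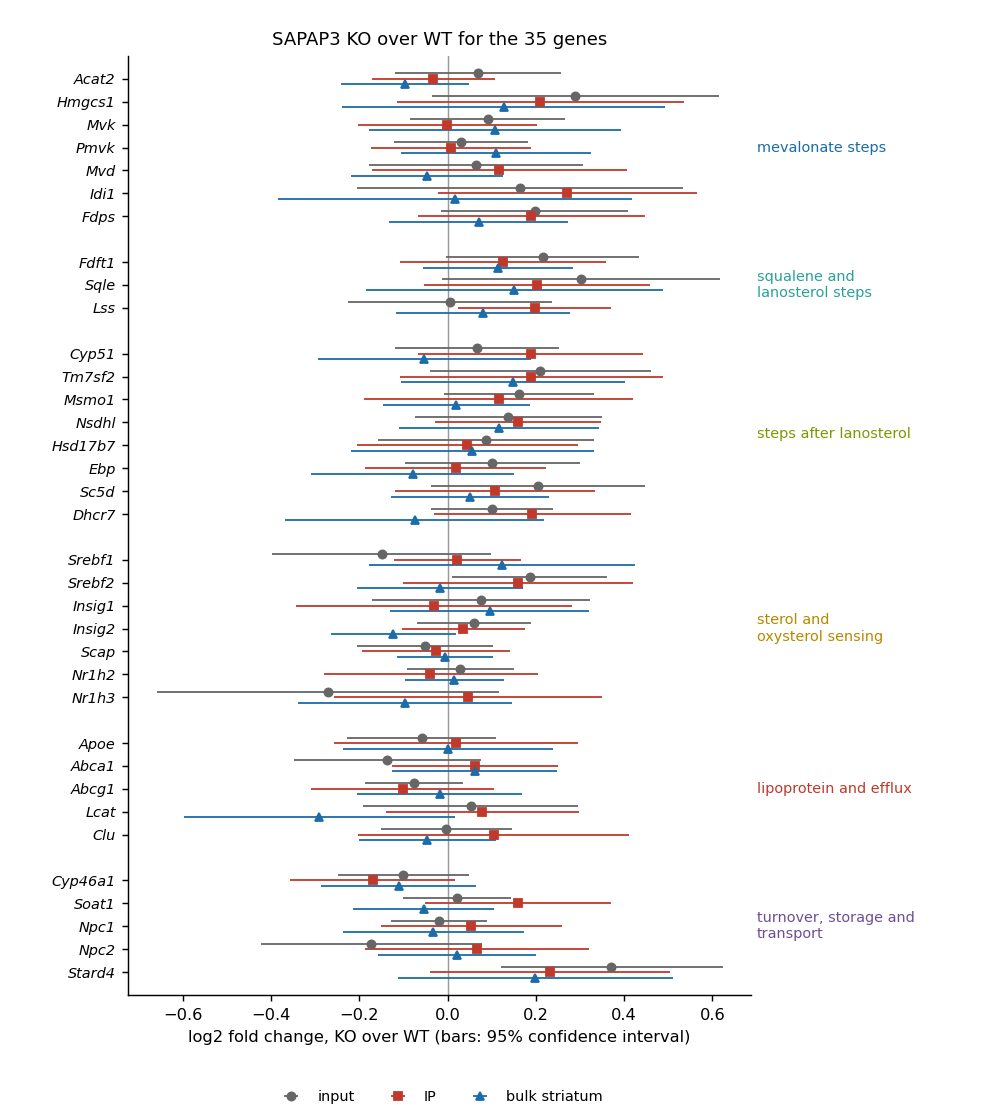
Log2 fold change of SAPAP3 KO over WT (horizontal axis) with 95% confidence intervals for the 35 genes (rows, by role) in input (grey circles), IP (red squares) and bulk striatum (blue triangles), each from 4 KO and 4 WT libraries. The intervals include 0 except those of Stard4 and Srebf2 in input and of Lss in IP, and the estimates lie between −0.29 (Lcat in bulk) and 0.37 (Stard4 in input).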

How the data were processed

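Reads were aligned by the authors to mm10 with STAR, and HTSeq is named in the submitters' processing notes, with no versions given. The authors deposited raw counts per gene symbol, as whole numbers that were not normalized, in 1 table of 40 libraries. The annotation, the strand setting and the handling of reads with several alignments are not given in the sources used here, so copies, overlapping genes and antisense genes can share or lose counts. The labels and the study's methods name different library kits and sequencers.

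Counts were tested with edgeR 4.0.16 in R 4.3.3 (filterByExpr, TMM scaling, quasi-likelihood test), in a fit of the groups compared, with Benjamini–Hochberg adjustment over all genes tested. A call required an adjusted p under 0.05 and, outside the genotype comparisons, a log2 fold change above 1 in size. DESeq2 1.42.0, limma-voom (limma 3.58.1), no filter on low counts, a filter of 5 FPKM in 4 libraries, scaling to 76 ribosomal protein genes, 1 fit of all 10 groups, no limit on the fold, a replicate block, Xist as a covariate and leaving out each library were the alternatives. Leaving out the libraries with Xist or with a shared animal label, and the block in comparisons of differences, were chosen after seeing the data. Intervals are 95% and errors are SE of the fit or SD over libraries. The scripts were tested on simulated data. Exon lengths were taken from RefSeq (GRCm38.p6), which matched 99.2% of 24058 symbols, and promoter sequences are those of RefSeq of the same build. The 5′ ends of Fdps, Fdft1, Sqle, Abcg1, Clu, Npc1 and Stard4 were not analysed here. Figures were drawn with matplotlib 3.10.9 in Python 3.11.15.

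The 35 genes, the related lists and the markers were chosen with earlier results of these data known. Values per library are given, in each role, for up to 3 called genes with the largest fold change in astrocyte IP, and for every gene that went against its role group or in opposite directions in the 2 cell types. In the genotype comparisons they are given for genes that passed the test or otherwise for the 3 smallest p values, and in the related lists the 3 called genes with the largest fold change are named. A few other genes are named to account for all 35.

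IP and input libraries of 1 mouse share an animal label in the astrocyte and SAPAP3 cohorts, and share a number only in the neuron cohort, whose animal labels differ. Deviations from the group means correlated between libraries of the same number at 0.25 to 0.58 in the astrocyte cohort, 0.49 to 0.79 in the neuron cohort and 0.43 to 0.68 in the SAPAP3 cohort, so the numbers were taken to pair the libraries.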

Additional observations from a re-analysis of the deposited data

Results flagged for a closer look

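Of 350 sets of 4 libraries (35 genes in 10 groups), 20 (5.71%) held 1 library whose distance from the nearest of the others was a share of their range above the 95% critical value of Dixon's test, where chance alone gives about 1 in 20. In SAPAP3 cohort KO input, Abcg1 read 26.0 FPKM in replicate 1 and 24.8 to 24.9 FPKM in the other 3 and Acat2 read 11.1 FPKM in replicate 2 and 13.5 to 14.0 FPKM in the other 3. In astrocyte IP, Apoe read 2046 FPKM in replicate 4 and 2259 to 2301 FPKM in the other 3 and Sc5d read 20.6 FPKM in replicate 1 and 22.7 to 22.9 FPKM in the other 3. In bulk KO, Cyp51 read 13.2 FPKM in replicate 1 and 15.1 to 15.3 FPKM in the other 3, Lcat read 9.5 FPKM in replicate 4 and 6.69 to 6.88 FPKM in the other 3, Msmo1 read 37.7 FPKM in replicate 1 and 45.4 to 45.7 FPKM in the other 3 and Srebf2 read 23.1 FPKM in replicate 4 and 27.0 to 27.8 FPKM in the other 3. In SAPAP3 cohort WT input, Cyp51 read 12.04 FPKM in replicate 1 and 15.2 to 15.8 FPKM in the other 3. In neuron-cohort input, Lcat read 7.45 FPKM in replicate 2 and 8.67 to 8.86 FPKM in the other 3 and Mvd read 8.6 FPKM in replicate 4 and 9.9 to 10 FPKM in the other 3. In neuron IP, Lss read 4.31 FPKM in replicate 2 and 3.53 to 3.58 FPKM in the other 3. In astrocyte-cohort input, Nr1h2 read 13.6 FPKM in replicate 1 and 15.4 to 15.5 FPKM in the other 3, Sqle read 12.2 FPKM in replicate 1 and 13.6 to 13.8 FPKM in the other 3 and Srebf1 read 15.8 FPKM in replicate 3 and 14.3 to 14.4 FPKM in the other 3. In SAPAP3 cohort WT IP, Nr1h3 read 2.77 FPKM in replicate 4 and 2.16 to 2.19 FPKM in the other 3 and Soat1 read 23.1 FPKM in replicate 1 and 26.6 to 27.0 FPKM in the other 3. In SAPAP3 cohort KO IP, Nsdhl read 14.8 FPKM in replicate 1 and 16.3 to 16.4 FPKM in the other 3, Scap read 40.8 FPKM in replicate 2 and 37.5 to 37.9 FPKM in the other 3 and Srebf1 read 59.5 FPKM in replicate 1 and 62.1 to 62.4 FPKM in the other 3.

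The enrichment over input differed between the 2 cell types for 22 genes by the interaction term of edgeR, and cell type cannot be told apart here from cohort or sex. For the mevalonate steps, the log2 difference (neuron minus astrocyte) was −2.17 for Idi1, −1.68 for Hmgcs1 and −1.27 for Mvd. For the squalene and lanosterol steps, the log2 difference (neuron minus astrocyte) was −1.33 for Lss and −1.22 for Sqle. For the steps after lanosterol, the log2 difference (neuron minus astrocyte) was −1.62 for Sc5d, −1.53 for Cyp51, −1.5 for Nsdhl, −1.40 for Msmo1, −1.40 for Dhcr7 and −1.09 for Tm7sf2. For the sensing genes, the log2 difference (neuron minus astrocyte) was −2.44 for Srebf1, −1.37 for Insig1 and −1.21 for Nr1h3. For the lipoprotein and efflux genes, the log2 difference (neuron minus astrocyte) was −3.76 for Lcat, −3.06 for Apoe, −2.75 for Clu and −2.66 for Abca1. For the genes of storage and transport, the log2 difference (neuron minus astrocyte) was −2.17 for Soat1, −2.0 for Npc1 and −1.74 for Npc2. Cyp46a1 had the opposite sign, at 1.40.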

How the results depend on the processing

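Under limma-voom, DESeq2, no filter on low counts and 1 fit of all 10 groups, the 114 values followed for single genes (called genes, Cyp46a1, Abcg1 and the leading genes of each genotype comparison) kept their direction and their side of the threshold, and all 14 counts of calls or signs stayed within 1.5 times. Over all 35 genes in the 7 comparisons without genotype (245 values), 0 changed sign under limma-voom, 2 under DESeq2, 3 without the filter and 4 in the fit of all groups, and none of these had passed the test. Under the filter of 5 FPKM, 16 of 221 did, 3 of which had passed. The replicate block, which can be fitted to the 4 comparisons of IP with its own input and to the 2 comparisons of differences (the latter added after seeing the data), gave 18 called genes in astrocyte IP, 2 in neuron IP, 16 in SAPAP3 cohort WT IP, 15 in KO IP, 22 for the interaction of cell type and 0 for that of genotype, and changed no call.

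Scaling to ribosomal protein genes and leaving out the limit on the fold changed the counts. Under the scaling, 33 genes were called in astrocyte IP, 1 in neuron IP, 30 in WT IP and 30 in KO IP of the SAPAP3 cohort, 35 between the inputs, and 8 higher and 6 lower for neuron IP over astrocyte IP. With this scaling the medians of all genes moved to 1.18, 0.46, 0.71, 0.63, 1.89 and 1.20 in these comparisons and to −0.72 for the interaction, and the share of higher calls among all calls went from 49.8% to 93.4% in astrocyte IP, from 2.58% to 41.7% in neuron IP, from 47.4% to 85.1% and from 51.6% to 83.9% in the SAPAP3 cohort, from 30.2% to 89.3% between the IP groups, from 63.8% to 99.5% between the inputs and from 30.2% to 4.64% for the interaction. Under it 58 of the 245 values changed sign, 38 of which had passed the test: 3 in astrocyte IP, 14 in neuron IP, 3 in each genotype of the SAPAP3 cohort, 20 between the IP groups, 11 between the inputs and 4 for the interaction. Of the values followed, these were in astrocyte IP Abcg1 (0.96) and Cyp46a1 (0.39), in the SAPAP3 cohort Cyp46a1 (0.40 in WT, 0.25 in KO), for neuron IP over astrocyte IP Cyp51 (0.068), Msmo1 (0.022), Nsdhl (0.079), Sc5d (0.022) and Nr1h3 (0.165), between the inputs Abcg1 (1.63) and Cyp46a1 (1.45), and for the interaction Abcg1 (−0.057). The number of the 35 genes above the median of all genes was the same as under TMM in 6 of these 7 comparisons, and 32 in place of 33 in WT IP. The median of 1.89 between the inputs shows that the scaling genes themselves shifted between the cohorts. Whether their reads were counted alike in all cohorts was not tested.

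Without a limit on the fold, 33 genes were called in astrocyte IP (94.3%, against 80.4% of all genes), 22 in neuron IP (62.9%, against 71.3%), 33 in each genotype of the SAPAP3 cohort (94.3%, against 67.3% and 71.9%), 30 for neuron IP over astrocyte IP (85.7%, against 79.6%) and 24 between the inputs (68.6%, against 53.8%), because the criterion is weaker by construction. Leaving out 1 library at a time gave 18 to 19 genes in astrocyte IP, 1 to 2 in neuron IP, 11 to 17 in WT IP, 14 to 18 in KO IP, 15 to 17 for neuron IP over astrocyte IP, 21 to 22 for the interaction, 0 to 0 between the inputs and 0 to 0 in each genotype comparison. It gave 15 to 18 synthesis enzymes above 0 for genotype in input, 13 to 17 in IP and 10 to 16 in bulk striatum. With 4 libraries a group, genotype differences of the size estimated, at most 0.37 on the log2 scale, did not pass adjustment over all genes.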
